A study of Mus musculus with 6 samples.

Results

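The genes described here are 10 members of the fibroblast growth factor (FGF) pathway: the receptors Fgfr1, Fgfr2, Fgfr3 and Fgfr4, the ligands Fgf2, Fgf7 and Fgf10, and the Sprouty genes Spry1, Spry2 and Spry4. They were chosen by name, and all 10 were found among the 55401 genes of the count table. C3H10T1/2 is a mouse mesenchymal stem cell (MSC) line that can be driven towards bone, fat or muscle in culture. RNA was sequenced from cells carrying a control short hairpin (shControl), a hairpin against Nfib (shNFIB) or a hairpin against Kmt2a, which encodes MLL1 (shMLL1). Each line was sampled untreated (day 0) and on day 7 of osteogenic medium. The medium was made with dexamethasone (0.1 µM), β-glycerophosphate (20 mM) and ascorbic acid 2-phosphate (100 µg/ml). No untreated library was made at day 7, so the medium and the time in culture cannot be told apart. All 3 lines, the control included, carried a hairpin, and whether a line was a pool or a clone is not given in the sources used here.

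FGF ligands bind receptor tyrosine kinases together with heparan sulfate chains, and the activated receptors signal through adaptor proteins to the RAS-ERK cascade. Fgf7 and Fgf10 are classic paracrine ligands made by mesenchyme that act mainly on an epithelial splice form of Fgfr2, whereas Fgf2 acts broadly on mesenchymal receptors. Fgfr1, Fgfr2 and Fgfr3 have well known roles in skeletal growth, and Sprouty proteins are induced by receptor signaling and restrain it. Counts per gene cannot separate the splice forms of a receptor.

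Each of the 6 conditions had a single library, with total counts between 21608680 and 34774066. A level is given in CPM, the count scaled to a common library size with TMM factors, which balance the libraries on the bulk of their genes, and a difference between 2 libraries as a log2 fold change with a 95% exact counting interval in parentheses. These intervals cover counting error only, and a difference between 2 conditions has no replicate check. Tests come from models over all 6 libraries with line and day as terms, which treat the lines as replicates of the day effect. They rest on 2 residual degrees of freedom a gene, with the spread of a gene estimated in part from other genes. In bulk RNA, fewer cells of a type and less RNA per cell cannot be told apart.

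The hairpin targets were lower in their own lines. Nfib was at 116.3 CPM in shControl, 35.3 in shNFIB and 65.5 in shMLL1 at day 0, and at 83.5, 8.15 and 72.7 at day 7. The difference from shControl in shNFIB was -1.72 at day 0 and -3.36 at day 7 on the log2 scale, and over both days it missed the threshold with an adjusted p of 0.140 in edgeR's quasi-likelihood test. Kmt2a was at 74.7 CPM in shControl, 86.5 in shNFIB and 30.9 in shMLL1 at day 0, and at 66.3, 94.0 and 34.8 at day 7. In shMLL1 its difference from shControl was -1.27 and -0.93 at the 2 days, with an adjusted p of 0.149 over both. All 10 mesenchymal markers examined had at least 10 counts in every library, with a summed level of 9809 CPM in shMLL1 to 23123 CPM in shNFIB at day 0 and 8915 to 11332 CPM at day 7. At day 0, 5 of these 10 genes were over 2-fold lower in shMLL1 than in shControl, against 9.35% of all genes, and at day 7 none was. The 8 osteoblast markers summed to 253 to 263 CPM in the day 0 libraries. At day 7 they summed to between 267.6 and 1555 CPM, with the highest sum in shControl. Most of this was Spp1, at 1381, 226.0 and 303.5 CPM for shControl, shNFIB and shMLL1 at day 7. Alpl stood apart, at 3.64, 7.27 and 0.0820 CPM in the same order. Of the 6 osteoblast markers with enough counts at day 7, 5 were over 2-fold lower in each knockdown line and none higher. The lower shares over all genes were 13.2% in shNFIB and 6.95% in shMLL1. Ibsp was at 0 counts throughout and Sp7 stayed under 10. The 7 adipocyte markers summed to 18.2 to 63.3 CPM at day 0 and to 30.1 to 95.3 CPM at day 7, with shMLL1 lowest at both days, and Adipoq stayed under 10 counts. Plin1 and Cidec, adipocyte genes at 0 counts at day 0 and chosen after their values were seen, differed between lines at day 7. Plin1 had 472 counts in shControl, 9 in shNFIB and 28 in shMLL1, and Cidec had 681, 5 and 17. Not all adipocyte markers followed these 2 genes. At day 7 Pparg had 1279, 2489 and 509 counts in the same order, and Fabp4 had 141, 116 and 118. Of the 6 adipocyte markers with enough counts at day 7, 1 was over 2-fold higher in shNFIB than in shControl and 4 were lower. In shMLL1 none was over 2-fold higher and 5 were lower. Markers of other cell types were low. The 6 epithelial genes, with Epcam and Krt18 at 0, summed to 6.14 to 9.14 CPM at day 0 and 0.203 to 1.18 at day 7. The 5 blood and macrophage genes, with Adgre1 at 0, summed to 1.58 to 2.65 CPM and then 4.53 to 8.40. The 5 skeletal muscle genes, with Ckm at 0, summed to 0.696 to 2.25 CPM and then 0.0656 to 0.169. The 5 endothelial genes summed to 3.38 to 25.5 CPM and then 2.79 to 5.14, mostly from Tek, while Cdh5, Kdr and Emcn stayed under 10 counts. The part of these marker shifts in the results on FGF genes was not tested.

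The stretches of DNA just before the start sites of Fgfr2, Fgf10, Spry1 and Spry2 are shown. The first 3 had large differences between single libraries, though none passed the adjusted threshold in edgeR's quasi-likelihood test over all 6 libraries. DESeq2 called Fgfr2 and Fgf10, as given below. Spry2, with the narrowest range of levels, stands for comparison. Each stretch is the 250 bases before the RefSeq start on GRCm38.p6, 5′ to 3′ on the strand of the gene. The short NFI motif (TTGGC, read on either strand) is in capitals. The Fgfr2 window lies at chr7:130266809-130267058 on the minus strand, inside the GENCODE M21 gene but in none of its exons, and the bases after this start are in no GENCODE transcript of Fgfr2. The Fgf10 window lies at chr13:118714449-118714698 on the plus strand, inside the GENCODE gene but in none of its exons. The Spry1 window lies at chr3:37639697-37639946 on the plus strand and overlaps an exon of Gm42922 on the opposite strand. The Spry2 window lies at chr14:105896820-105897069 on the minus strand and holds no exon.
Fgfr2: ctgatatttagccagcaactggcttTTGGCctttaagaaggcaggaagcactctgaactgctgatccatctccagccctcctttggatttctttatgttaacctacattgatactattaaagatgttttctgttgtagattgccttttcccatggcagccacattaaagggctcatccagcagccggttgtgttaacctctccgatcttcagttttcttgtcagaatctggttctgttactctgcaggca
Fgf10: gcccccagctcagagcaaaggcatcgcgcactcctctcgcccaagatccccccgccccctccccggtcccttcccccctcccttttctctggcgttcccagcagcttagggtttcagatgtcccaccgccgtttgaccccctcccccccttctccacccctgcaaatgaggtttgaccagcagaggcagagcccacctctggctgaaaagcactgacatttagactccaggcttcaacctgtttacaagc
Spry1: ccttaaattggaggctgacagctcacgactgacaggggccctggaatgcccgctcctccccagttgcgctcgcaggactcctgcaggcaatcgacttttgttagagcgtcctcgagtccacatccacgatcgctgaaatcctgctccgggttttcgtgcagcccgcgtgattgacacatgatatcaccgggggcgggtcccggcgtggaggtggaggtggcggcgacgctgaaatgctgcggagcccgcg
Spry2: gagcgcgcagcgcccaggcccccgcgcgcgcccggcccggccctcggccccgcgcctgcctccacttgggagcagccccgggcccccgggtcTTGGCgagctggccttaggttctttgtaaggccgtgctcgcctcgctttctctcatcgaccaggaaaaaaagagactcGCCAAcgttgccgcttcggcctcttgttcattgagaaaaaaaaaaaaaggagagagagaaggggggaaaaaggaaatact

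Windows before RefSeq starts were obtained for 8 of the 10 genes, and Fgfr3 had 2 start sites, which gave 9 windows. Fgfr1 had no window, and member windows on chromosome 18, where Spry4 lies, were left out. The short NFI motif was present in 3 of the 9 windows. It began 225 bases before the start of Fgfr2, 247 bases before that of Fgfr4, and 158 and 80 bases before that of Spry2. Of 32851 mouse windows of the same length, 41.5% held it. The NFI palindrome, which contains the short motif followed after 5 bases by its reverse complement, was in none of the 9 and in 0.0365% of all windows. The letters of the RUNX motif TGTGGT and the ETS motif GGAAGT, on either strand, were also in none of the 9, against 14.0% and 19.7% of all windows. A match, or the lack of one, describes these letters only.

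Per exon length, a single gene dominated each class. In RPKM, the TMM-scaled CPM divided by exon length in kilobases, Fgf7 averaged 46.1 over the 6 libraries and Fgfr1 37.3. Spry2 followed at 10.6, Fgf10 at 8.80, Spry1 at 3.44 and Fgf2 at 1.75. Fgfr2 averaged 1.06, Fgfr3 0.720, Spry4 0.481 and Fgfr4 0.0172. Neighbours in this order overlapped in range, except at 2 steps. Spry2, at 8.88 to 12.5 RPKM, lay below every Fgfr1 value, and Fgfr4, at 0 to 0.0578 RPKM, lay below every Spry4 value. Fgfr1 ran from 22.9 to 60.2 RPKM and Fgf7 from 21.0 to 63.3, and with the longest transcript as the length Fgfr1 came first, at 73.1 against 56.1. Fgfr1 made up between 88.6% and 99.0% of the summed RPKM of the 4 receptors. Spry2 held between 58.0% and 88.4% of the 3 Sprouty genes. Fgf7 held between 55.8% and 91.1% of the 22 FGF genes examined, and between 69.5% and 92.7% without the intracellular homologous factors Fgf11 to Fgf14, which are not receptor ligands.

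**Figure D1:**
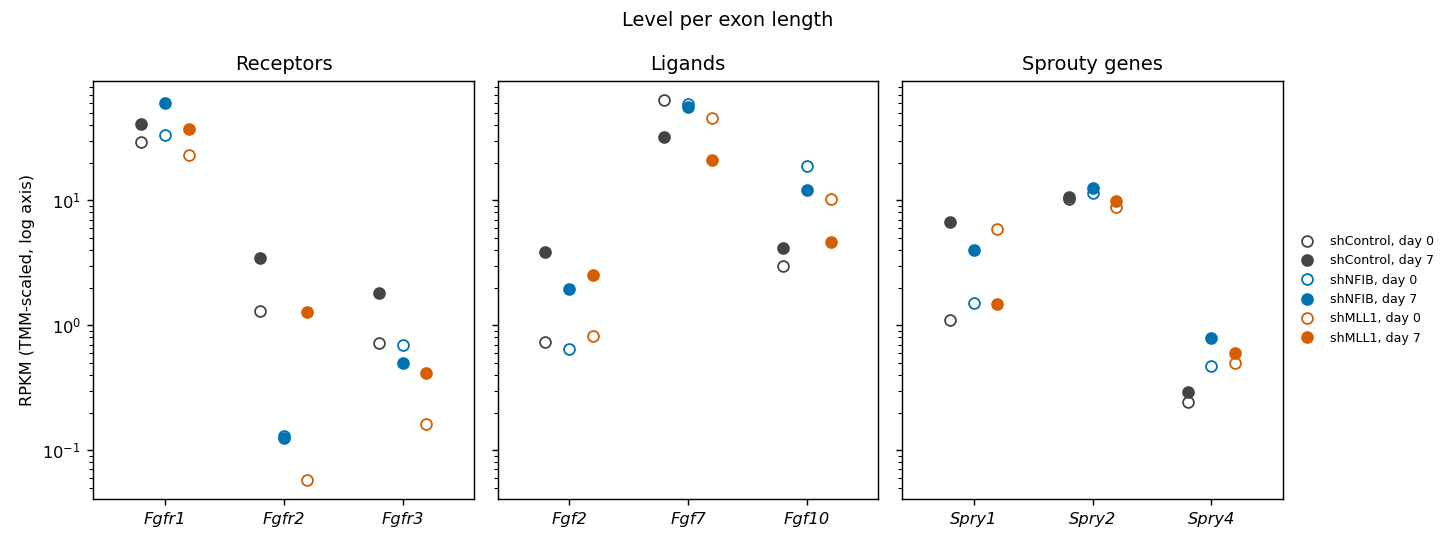
Level per exon length of the 9 genes with at least 10 counts, in RPKM on a log axis, with 1 point for each library, open for day 0 and filled for day 7. Fgfr1, Fgf7 and Spry2 lie highest in their classes, and the Fgfr2 points span the widest range, from 0.0577 to 3.44 RPKM.

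Fgf2, the ligand that acts broadly on mesenchymal cells, rose from day 0 to day 7 over the 3 lines and was higher in each. Day 0 levels were 4.95, 4.40 and 5.57 CPM in shControl, shNFIB and shMLL1, and day 7 levels were 25.9, 13.1 and 17.0 CPM. The day 0 and day 7 libraries did not overlap. The change was 1.86 (SE 0.27) on the log2 scale over the lines, with an adjusted p of 0.00372 in edgeR's quasi-likelihood test. At day 0 the counting intervals of the knockdown lines against shControl included 0, and at day 7 both lines were lower. At day 7 the log2 difference for shNFIB was -0.98 (-1.16 to -0.81), and for shMLL1 it was -0.61 (-0.78 to -0.43). Fgf2 shares 640 exon bases, 9.44% of its exon length, with Nudt6 on the opposite strand, and the strand setting of the counting is not given in the sources used here. Nudt6 itself had 49 to 108 counts.

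Fgf7, the most abundant of the ligands, was lower at day 7 in shControl and shMLL1 and nearly level in shNFIB. It was at 205.7 CPM and then 104.3 in shControl, at 147.2 and then 68.1 in shMLL1, and at 191.6 and then 182.3 in shNFIB. The log2 fold change for these lines was -0.98 (-1.04 to -0.92), -1.11 (-1.19 to -1.03) and -0.07 (-0.13 to -0.02) in the same order, and the last became 0.03 with library size alone. Over the lines the day difference was -0.72 (SE 0.26), which missed the threshold with an adjusted p of 0.0658 in edgeR's quasi-likelihood test. Without both libraries of shNFIB it was -1.05 with an adjusted p of 0.0231, and without either of them it was also called. At day 7, shNFIB stood 0.80 (0.74 to 0.87) above shControl and shMLL1 0.62 below it, at -0.62 (-0.70 to -0.53).

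Fgf10, the second ligand of the epithelial splice form of Fgfr2, was higher in both knockdown lines than in shControl at day 0. Day 0 levels were 13.7 CPM in shControl, 86.1 in shNFIB and 46.8 in shMLL1, and day 7 levels were 19.1, 55.9 and 21.3 CPM. The shNFIB libraries both exceeded every other library, and the difference from shControl was 2.65 (2.51 to 2.80) on the log2 scale at day 0 and 1.55 (1.42 to 1.69) at day 7. In shMLL1 the difference was 1.77 (1.61 to 1.93) at day 0 and 0.16 (-0.02 to 0.33) at day 7, an interval that includes 0. The day response was positive in shControl, at 0.47 (0.29 to 0.66), and negative in shNFIB, at -0.62 (-0.71 to -0.53), and in shMLL1, at -1.14 (-1.28 to -0.99). Over the lines it was -0.44 (SE 0.31), with an adjusted p of 0.306 in edgeR's quasi-likelihood test. This value rested on single libraries, since it was -0.92 without either shControl library, -0.09 without shMLL1 at day 0 and -0.12 without shMLL1 at day 7, and none of these passed the test. The antisense transcript Gm16263 shares 2.67% of the exon bases of Fgf10 and had 7 to 45 counts.

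**Figure D2:**
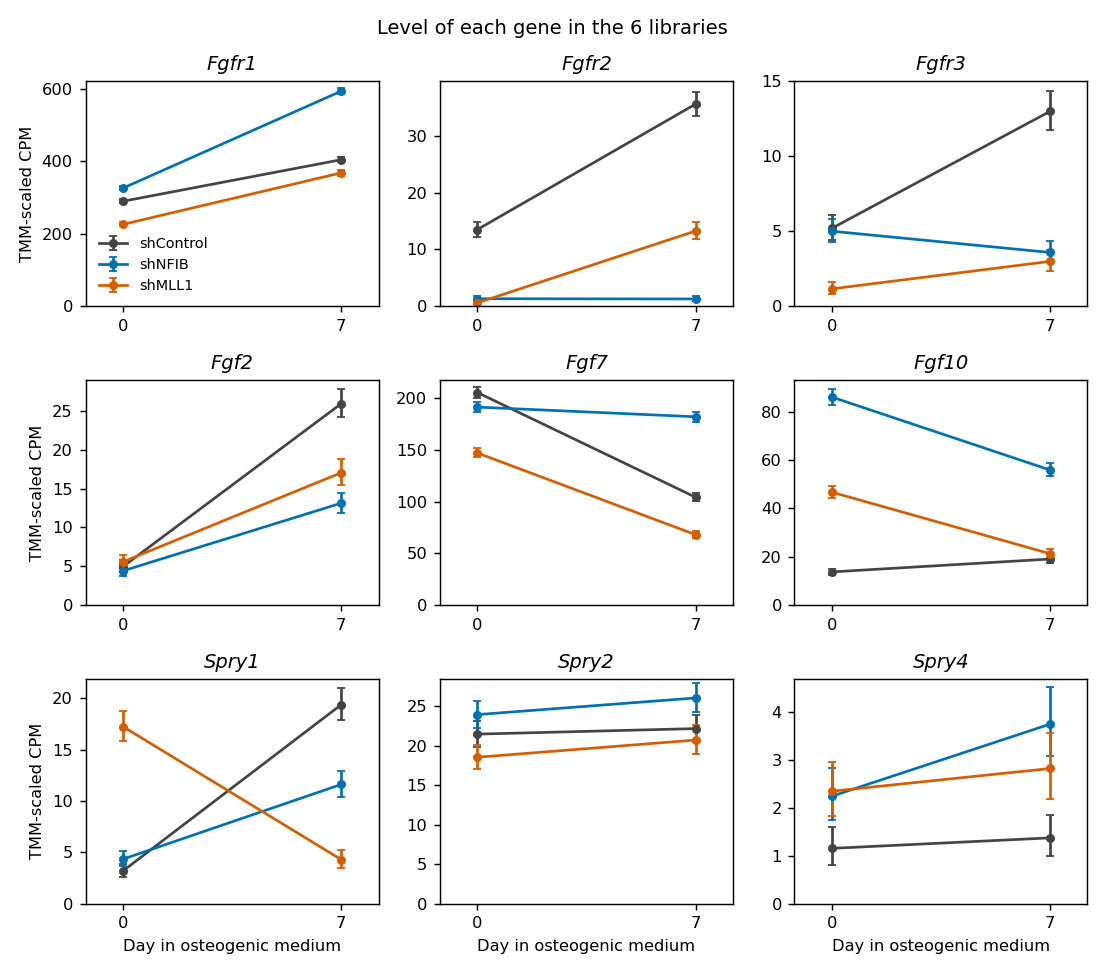
TMM-scaled CPM of 9 genes at day 0 and day 7, with 1 panel a gene and its own axis from 0, lines joining the 2 libraries of a cell line, and bars for the 95% exact counting interval. Fgf2 lies higher at day 7 in each line, Fgfr2 stays low in shNFIB, Spry1 crosses between shControl and shMLL1, and Spry2 lies between 18.5 and 26.0 CPM throughout.

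Fgfr1, the main receptor in these cells, was higher at day 7 in each line. Day 0 levels were 290.0 CPM in shControl, 326.2 in shNFIB and 226.2 in shMLL1, and day 7 levels were 404.8, 594.1 and 368.4 CPM. The highest day 0 level, in shNFIB, lay below the lowest day 7 level, in shMLL1. The rise was 0.68 (SE 0.21) on the log2 scale over the lines, with an adjusted p of 0.0464 in edgeR's quasi-likelihood test. The call was lost without the line as a block, with an adjusted p of 0.104, and in 5 of the 6 fits that left out 1 library, where the adjusted p reached 0.238. These were the fits without shControl at either day, shNFIB at either day or shMLL1 at day 7, with adjusted p values from 0.0895. The lines differed by less than 2-fold at both days.

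Fgfr2, whose epithelial splice form is the main receptor for Fgf7 and Fgf10, showed the widest spread of the set. Day 0 counts were 431 in shControl, 42 in shNFIB and 18 in shMLL1, or 13.5, 1.33 and 0.596 CPM. At day 7 it had 1084, 38 and 323 counts, or 35.6, 1.29 and 13.2 CPM. Both shControl libraries were above the 4 knockdown libraries, though shMLL1 at day 7 and shControl at day 0 were close, at 13.2 and 13.5 CPM. The highest level was 59.6 times the lowest.

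The gap between shNFIB and shControl in Fgfr2 was over 10-fold at both days, and that of shMLL1 was smaller at day 7. In shNFIB the log2 difference from shControl was -3.34 (-3.84 to -2.88) at day 0 and -4.79 (-5.30 to -4.32) at day 7, where the level was 27.6 times lower. In shMLL1 it was -4.49 (-5.27 to -3.82) at day 0 and -1.43 (-1.61 to -1.25) at day 7. From day 0 to day 7 the log2 difference in Fgfr2 was 1.40 (1.24 to 1.56) in shControl, -0.05 (-0.72 to 0.62) in shNFIB and then 4.46 (3.79 to 5.25) in shMLL1. Over the lines the day difference was 1.84 (SE 0.77) with an adjusted p of 0.104 in edgeR's quasi-likelihood test, and 2.71 with an adjusted p of 0.0125 without both libraries of shNFIB. Without both libraries of shMLL1 it was 0.76 with an adjusted p of 0.137. DESeq2 called it with an adjusted p of 0.0139. Of the summed receptor RPKM, Fgfr2 made up 4.16% and 7.44% in the shControl libraries of day 0 and day 7. The shares were 0.380% and 0.205% for shNFIB, then 0.250% and 3.28% for shMLL1. The GENCODE model of Fgfr2 reaches to chr7:133123350, far upstream of the window shown above, and shares 314 exon bases on the same strand with Ctbp2, 3.04% of its exon length. Ctbp2 had 1061 to 1854 counts, against 18 to 42 for Fgfr2 in the knockdown libraries other than shMLL1 at day 7, and how shared reads were assigned was not tested.

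Fgfr3, which restrains cartilage growth in the skeleton, was lower in shMLL1 than in shControl at both days. Day 0 levels were 5.20 CPM in shControl, 5.00 in shNFIB and 1.16 in shMLL1, and day 7 levels were 13.0, 3.59 and 2.99 CPM. The shControl library at day 7 stood above the other 5, which ran from 1.16 to 5.20 CPM. The shMLL1 difference was -2.16 (-2.73 to -1.63) at day 0 and -2.12 (-2.50 to -1.76) at day 7. In shNFIB it was -0.05 (-0.38 to 0.27) at day 0 and -1.86 (-2.18 to -1.54) at day 7. The log2 day response of Fgfr3 was 1.32 (1.06 to 1.59) in shControl and 1.36 (0.77 to 1.99) in shMLL1, but -0.48 (-0.85 to -0.12) in shNFIB. Over the lines this was 0.73 (SE 0.44) with an adjusted p of 0.227 in edgeR's quasi-likelihood test, and 1.34 with an adjusted p of 0.0288 without both libraries of shNFIB. Without both of shControl it was 0.36 and without both of shMLL1 0.40, and neither was called. The opposite-strand transcript G630022F23Rik, with at most 8 counts, covers 13.9% of its exon bases.

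Fgfr4 had 0 to 5 counts in a library. Only shMLL1 at day 7, with 5 counts or 0.205 CPM, was above the floor of 3 counts, which is 0.0939 to 0.123 CPM in these libraries. Fgfr4 was the 1 member that failed the filter on low counts, and 9 of the 10 were tested.

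Spry1, a feedback inhibitor of receptor tyrosine kinase signaling, responded in opposite directions in shControl and shMLL1. Day 0 counts were 102 in shControl, 137 in shNFIB and 520 in shMLL1, or 3.19, 4.34 and 17.2 CPM. Day 7 counts were 590, 343 and 105, or 19.4, 11.6 and 4.30 CPM. The shMLL1 library was thus the highest of the 3 at day 0 and the lowest at day 7. The log2 day response was 2.60 (2.29 to 2.92) in shControl, 1.42 (1.13 to 1.72) in shNFIB and -2.00 (-2.32 to -1.70) in shMLL1. The shMLL1 response differed from that of shControl by -4.60 (-5.03 to -4.17). Over the lines the day difference was 0.80 (SE 0.87), with an adjusted p of 0.499 in edgeR's quasi-likelihood test, and without both libraries of shMLL1 it was 1.97 with an adjusted p of 0.00455. Without shControl at day 0, at day 7 or at both it changed sign, to -0.33, and without both libraries of shNFIB it was 0.30, and none of these was called. Gm42922 on the opposite strand shares 24.4% of the exon bases of Spry1 and had at most 9 counts.

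Spry2, the most abundant Sprouty gene per length, varied least. The levels were 21.4, 23.9 and 18.5 CPM for shControl, shNFIB and shMLL1 at day 0 and 22.1, 26.0 and 20.7 CPM at day 7. The highest of the 6 was 1.40 times the lowest. The day response was 0.05 (-0.11 to 0.20) in shControl, 0.12 (-0.03 to 0.27) in shNFIB and 0.16 (-0.02 to 0.34) in shMLL1. Each interval includes 0. In shMLL1 the Spry2 response was 0.37 when counts were scaled by library size alone.

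Spry4, another inhibitor of this family, was the least abundant Sprouty gene. Day 0 counts were 37 in shControl and 71 in each knockdown line, and day 7 counts were 42 in shControl, 111 in shNFIB and 69 in shMLL1. In CPM these were 1.16, 2.25 and 2.35 at day 0 and 1.38, 3.76 and 2.83 at day 7. All 4 knockdown libraries were above both shControl libraries. The difference from shControl was 0.95 (0.36 to 1.57) and 1.44 (0.92 to 1.99) in shNFIB at day 0 and day 7. In shMLL1 it was 1.02 (0.43 to 1.64) and 1.03 (0.46 to 1.63), just past 2-fold, and with a prior count of 2 it was just under, at 0.98 on day 0 and 1.00 on day 7.

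Counted together at a 2-fold cut, the members past it were all higher at day 7 in shControl and shNFIB and stood on both sides in shMLL1. These counts are small and depend on the cut, since Fgf7 in shControl, at -0.98, fell just short of 2-fold lower. In shControl, 4 of the 9 members with at least 10 counts were over 2-fold higher at day 7, namely Fgfr2, Fgfr3, Fgf2 and Spry1, and none was over 2-fold lower, against 23.0% and 14.9% of all genes. In shNFIB, Fgf2 and Spry1 were over 2-fold higher and none lower, not far from the 16.5% and 13.9% of all genes. In shMLL1, Fgfr2, Fgfr3 and Fgf2 were over 2-fold higher and Fgf7, Fgf10 and Spry1 over 2-fold lower, against 25.8% and 19.8%. Fgf7 and Fgf10 lost this call in shMLL1 under scaling by library size alone, at -0.91 and -0.93. Over the lines, 2 of the 9 members tested passed an adjusted p of 0.05 upward and none downward in edgeR's quasi-likelihood test, where 16.8% of all genes passed upward and 16.6% downward. Under scaling by library size alone, 3287 genes passed upward and 2116 downward, in place of 2796 and 2760. The 0 downward calls stand beside 1 member, Fgf7, that was lower with an unadjusted p under 0.05, at 0.0251, as were 23.2% of all genes. DESeq2 called Fgf7 lower with an adjusted p of 0.0366, and Fgf2, Fgfr1 and Fgfr2 higher, where it called 19.4% of all genes lower and 19.5% higher. The median day effect of the 9 was 0.68, against 0.00 over all genes tested.

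**Figure D3:**
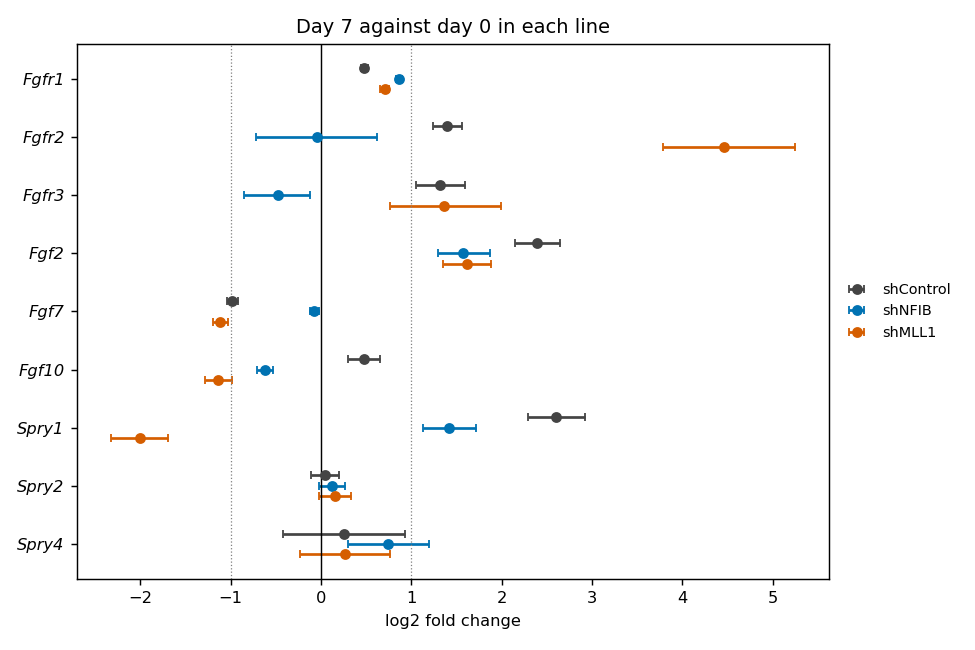
Log2 fold change from day 0 to day 7 of 9 genes in each line, with bars for the 95% exact counting interval and dotted lines at 2-fold. Fgf2 lies to the right of 1 in all 3 lines, while Spry1 lies at 2.60 in shControl and at -2.00 in shMLL1, and Fgfr3 and Fgf10 also differ in direction between lines.

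Against shControl, members stood on both sides in each knockdown line. In shNFIB at day 0, 1 member, Fgf10, was over 2-fold higher and 1, Fgfr2, over 2-fold lower, against 7.26% and 6.32% of all genes. At day 7, Fgf10 and Spry4 were over 2-fold higher and Fgfr2 and Fgfr3 lower, against 8.07% and 13.2%. Fgf2 passed 2-fold lower in shNFIB at day 7 with DESeq2 size factors, at -1.02, and with library size alone, at -1.09. In shMLL1 at day 0, Fgf10, Spry1 and Spry4 were over 2-fold higher and Fgfr2 and Fgfr3 lower, against 11.0% and 9.35%. At day 7, Spry4 was over 2-fold higher and Fgfr2, Fgfr3 and Spry1 lower, against 8.59% and 6.95%. At each day both comparisons share the same shControl library. The median over the 9 members was 0.16 and 0.23 in shNFIB at day 0 and day 7, and -0.21 and -0.61 in shMLL1. The median of all genes in these comparisons ran from -0.04 to 0.09.

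**Figure D4:**
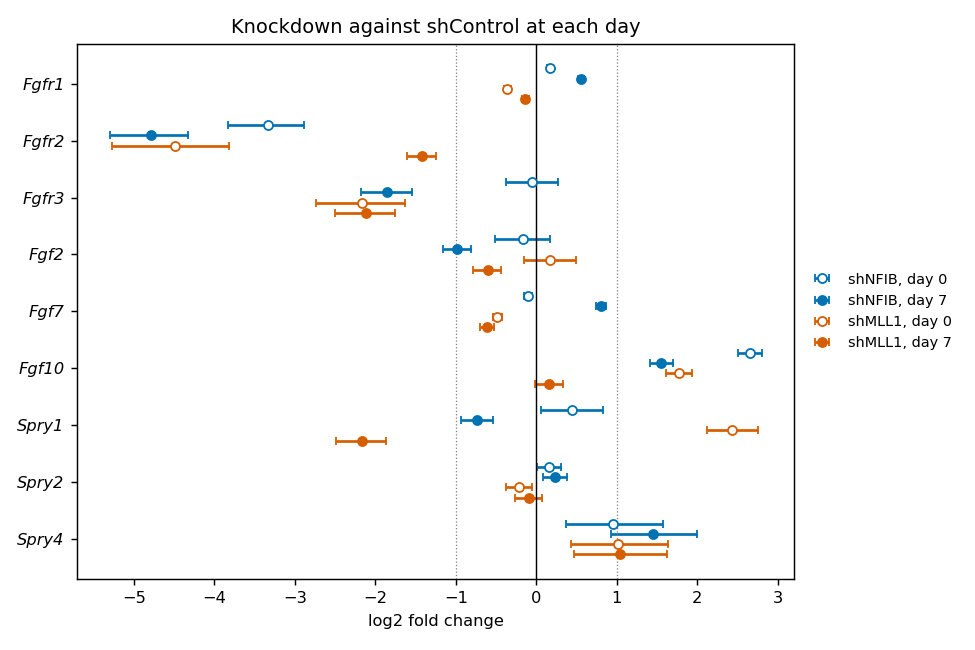
Log2 fold change of 9 genes in shNFIB and shMLL1 against shControl at day 0 (open) and day 7 (filled), with bars for the 95% exact counting interval and dotted lines at 2-fold. Fgfr2 lies below -1 in all 4 comparisons, from -4.79 to -1.43, and Spry1 lies at 2.43 and -2.17 in shMLL1 at day 0 and day 7.

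No line effect on a member passed the adjusted threshold over both days in edgeR's quasi-likelihood test. A line difference that changes with the day, as for Spry1 or Fgfr2 in shMLL1, counts as error in this model. Not passing therefore does not show that the lines were alike. For shNFIB against shControl, edgeR's quasi-likelihood test called 0.378% of all genes and none of the 9 members. An unadjusted p under 0.05 was found for 3 of the 9, Fgfr2, Fgf10 and Spry4, and for 12.6% of all genes. Fgfr2 had a log2 fold change of -3.90 (SE 0.93) with an adjusted p of 0.168, and Fgf10 one of 2.04 (SE 0.39) with an adjusted p of 0.11. These were the 2 members called by DESeq2, which called 3.67% of all genes, with adjusted p values of 0.000114 and 0.000474. With the shMLL1 libraries left out, edgeR called 3.37% of all genes and both of these members, with adjusted p values of 0.00276 and 0.00988. Over the alternatives tried the adjusted p ran from 3.61e-05 to 0.425 for Fgfr2 and from 0.000137 to 0.368 for Fgf10. Fgfr2 was lower and Fgf10 higher than shControl at both days and under every alternative run.

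For shMLL1 against shControl, 0.0300% of all genes and none of the 9 members were called by edgeR's quasi-likelihood test. An unadjusted p under 0.05 was found for 4 of the 9, Fgfr2, Fgfr3, Fgf10 and Spry4, and for 9.33% of all genes. Fgfr3 had a log2 fold change of -2.13 (SE 0.54) with an adjusted p of 0.247, and it was the 1 member called by DESeq2, with an adjusted p of 0.0128, where DESeq2 called 2.50% of all genes. Over the alternatives tried the adjusted p of Fgfr3 ran from 0.00595 to 0.854. Fgfr2 had a log2 fold change of -2.39 (SE 0.88) with an adjusted p of 0.465 and stood lower than shControl at both days.

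The rest of the pathway was read from lists of named genes, with edgeR's quasi-likelihood test of the day effect over the lines, which called 16.8% of all genes higher and 16.6% lower. The 19 other FGF genes include the intracellular homologous factors Fgf11 to Fgf14, which are not receptor ligands. Of these 19 genes, 5 had enough counts to test, 2 rose and 1 fell. Fgf17 rose by 4.37 (SE 0.89) on the log2 scale and the homologous factor Fgf14 by 1.98 (SE 0.31), while Fgf18, a ligand known from bone and cartilage, fell by 1.82 (SE 0.55), with adjusted p values of 0.0122, 0.00524 and 0.0409. Of 17 coreceptors and heparan sulfate carriers, 13 were tested, 2 rose and 2 fell, near the shares over all genes. Klb, a coreceptor for endocrine FGFs, rose by 2.92 (SE 0.75) and Fgfrl1, a receptor without a kinase domain, by 1.11 (SE 0.22). Flrt2 fell by 2.16 (SE 0.29) and Sdc2, a heparan sulfate proteoglycan, by 1.25 (SE 0.22). Fgf17, Klb and Fgf18 were low, with 0 to 84, 1 to 29 and 4 to 42 counts. Fgf17 and Klb had under 10 counts in every day 0 library. They passed the filter on low counts through day 7, where they are high, so the filter favoured an upward call.

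All 12 receptor adaptors were tested, of which 3 rose and 2 fell, against 16.8% and 16.6% of all genes. Frs3, a docking protein of FGF receptors, rose by 1.89 (SE 0.34), Plcg1 by 1.68 (SE 0.27) and Shc1 by 0.82 (SE 0.20), and Crkl fell by 0.81 (SE 0.20). Of 13 RAS-ERK cascade genes, 2 rose and 5 fell, against the same shares. The scaffold gene Ksr1 rose by 2.71 (SE 0.48), while Map2k1, which encodes the ERK kinase MEK1, fell by 1.16 (SE 0.30) and Hras by 0.95 (SE 0.21).

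Of 11 other feedback inhibitors, 9 were tested, of which 1 rose and 2 fell, against 16.8% and 16.6% of all genes, and Spry3 was not analysed here. Spred3 rose by 1.32 (SE 0.23), and Spred2 fell by 1.29 (SE 0.28) and Spred1 by 0.68 (SE 0.18). Dusp4, an ERK phosphatase gene chosen after its values were seen, was at 7.95, 29.8 and 34.8 CPM for shControl, shNFIB and shMLL1 at day 0 and at 5.25, 30.8 and 1.93 CPM at day 7. Its day difference did not pass the test, with an adjusted p of 0.204. Of 16 ERK-responsive factors, 4 rose and 6 fell, against the same shares. Etv4 fell by 3.29 (SE 0.56), and the immediate early genes Egr3, Fosb and Fos rose by 2.94 (SE 0.69), 2.55 (SE 0.63) and 2.50 (SE 0.35). The median day effect was 1.43 for the other FGF genes, where Fgf1 and Fgf17 reached 10 counts only at day 7. It was -0.30 for coreceptors and carriers, -0.22 for adaptors and -0.30 for the cascade. It was -0.22 for feedback inhibitors and -0.67 for ERK-responsive factors, against 0.00 over all genes tested. In the line comparisons a single gene of these lists was called, Etv1, an ERK-responsive factor chosen after its values were seen, which was higher in shNFIB by 2.67 (SE 0.28) with an adjusted p of 0.0303.

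The genes most like each member were those with the highest Pearson correlation of log2 CPM over the 6 libraries, among 11428 protein-coding genes with at least 10 counts in each. The 6 libraries share lines and days, and so few points give many high correlations, so these are descriptions only. For Fgfr2 they were Limch1 (r = 0.992), Slc25a35 (r = 0.979) and Shroom1 (r = 0.978), and for Fgfr3 Rabep2 (r = 0.990), 1600014C10Rik (r = 0.988) and Spsb3 (r = 0.978). For Fgfr1 they included Ppil2 and Mill2, with r of 0.991 and 0.990. For Fgf2 they were Sirt7, Hsbp1 and Mpv17, with r of 0.998, 0.997 and 0.996, and 779 genes exceeded 0.9. For Fgf7 they included Phax and Psmd3, with r of 0.998 and 0.996. For Fgf10 they were Ndfip1, Cpsf4 and Serpini1, with r of 0.984, 0.982 and 0.952, and 24 genes exceeded 0.9. Spry1 had the fewest such genes, 13 over 0.9, led by Med28 (r = 0.956), Exoc3l4 (r = 0.953) and Nr2c2ap (r = 0.930). For Spry2 they were C1qtnf1, Uaca and Iqsec1, with r of 0.997, 0.994 and 0.991. For Spry4 they were Ms4a4d, Hist1h2ac and 2310057M21Rik, with r of 0.996, 0.968 and 0.963. Within the set, the correlation furthest from 0 was -0.86 between Fgfr2 and Fgf10.

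On GRCm38, Fgfr1 lies on chromosome 8 at 25513654 to 25575718 on the plus strand, Fgfr3 on chromosome 5 at 33721674 to 33737068 and Fgfr4 on chromosome 13 at 55152640 to 55168759, both on the plus strand. Fgf2 lies on chromosome 3 at 37348346 to 37410108, close to Spry1 at 37639947 to 37644598, and both are on the plus strand. Fgf7 lies on chromosome 2 at 126034658 to 126091185 and Fgf10 on chromosome 13 at 118669791 to 118792115, both on the plus strand. Fgfr2 lies on chromosome 7 at 130162451 to 133123350, Spry2 on chromosome 14 at 105891947 to 105896819 and Spry4 on chromosome 18 at 38586247 to 38601415, all on the minus strand.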

How the data were processed

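The authors trimmed paired reads (Trimmomatic 0.39), aligned these with HISAT2 2.2.1 to GRCm38, also called mm10, kept reads of high mapping quality with SAMtools 1.12, removed PCR duplicates and counted reads per gene with htseq-count 0.11.1. The deposited values are raw counts for each Ensembl gene, as the authors' counting gave them, with no scaling. The annotation release and strand setting are not given in the sources used here. Libraries were grouped by the labels into 3 lines and 2 days, with 1 library a condition and total counts of 21608680 to 34774066, so that precision for a pair rests on counting error alone. The members and all lists were chosen with earlier results of these data known.

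All 6 libraries entered 1 model of line plus day, fitted in edgeR 4.0.16 under R 4.3.3 (TMM, filterByExpr, quasi-likelihood test) to 16660 genes, with Benjamini-Hochberg adjustment over all of them. The estimated biological coefficient of variation was 0.281. There were 2 residual degrees of freedom a gene, and the spread of a gene was estimated in part from other genes. The line is a block because both days of a line come from the same cells, and the deviations of its 2 libraries from the day means correlated at 0.427 in shControl, 0.429 in shNFIB and 0.274 in shMLL1. No source says that libraries came from separate cultures, so p-values measure only the spread between these libraries. A line difference that changes with the day counts as error in this model and is part of that spread. Per the methods of the study, its own calls were made in edgeR after TMM scaling.

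Pairs of libraries were compared as log2 ratios of TMM-scaled counts with a prior count of 0.125 and exact Clopper-Pearson intervals, and a gene was counted as over 2-fold among those with at least 10 counts in 1 of the 2 libraries. RPKM used the union of GENCODE M21 exons. Promoter windows came from RefSeq on GRCm38.p6. Genes were named by a rule: the members, the hairpin targets, up to 4 genes of each pathway list that passed the day test with the largest change, and the 3 genes most correlated with each member. Some genes that this rule names are not reported here. Alternatives were DESeq2 1.42.0 size factors and test, library size alone, all genes with at least 1 count, a prior count of 2, thinning every library once at random to the depth of the smallest, no block, only the 4 libraries compared, and each library or line left out. The steps were tested on simulated counts. Intervals and figures used Python 3.11.15, scipy 1.17.1 and matplotlib 3.10.9. ChIP-seq was not analysed here.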

Additional observations from a re-analysis of the deposited data

Results flagged for a closer look

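A total of 4 day responses went in opposite directions in a knockdown line and in shControl, with both counting intervals away from 0. Each rests on 1 library a condition, and the difference between lines was not tested against replicates. The share of all genes that meet this rule was not computed, so the count of 4 says nothing about the members as a set. Spry1 was higher at day 7 in shControl and lower in shMLL1, and the log2 responses differed by -4.60. Fgfr3 was higher at day 7 in shControl and lower in shNFIB, a difference of -1.80. Fgf10 was higher at day 7 in shControl and lower in both knockdown lines, with differences of -1.10 in shNFIB and -1.61 in shMLL1. The osteoblast marker sum, mostly Spp1, was also highest in shControl at day 7, at 1555 CPM against 267.6 CPM in the lowest day 7 library. Its part in these differences was not tested.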

How the results depend on the processing

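The number of genes with a day effect, 5556, became 2043 without both libraries of shControl and ran from 2419 to 5425 when 1 library was left out, 3881 without the line as a replicate block, and all other alternatives kept it within 1.5 times. Without the block the call of Fgfr1 was lost and that of Fgf2 held. The 63 genes called for shNFIB became 688 with all genes of at least 1 count, 615 with the DESeq2 test and 533 with only the 4 libraries compared, and ran from 63 to 960 when 1 library was left out. The 5 genes called for shMLL1 became 526, 410 and 183 under the same settings, and ran from 34 to 646. A line with 1 library left is assumed to vary like the others. Including all genes with at least 1 count raised the number over 2-fold from day 0 to day 7 to 12666 in shControl, 11066 in shNFIB and 14789 in shMLL1. Against shControl it became 7831 and 9364 in shNFIB and 9651 and 9062 in shMLL1 at day 0 and day 7.

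Of 324 member values of the model fits under alternatives, 265 kept their direction and side of the threshold. Of the others, 42 passed it, 9 lost it and 8 changed sign. The 9 losses were of the day effect of Fgfr1 or Fgf2, the 2 member values called in the main fit. Only losses of Fgfr1 without the block or without 1 library are detailed above. The sign changes were those of Spry1 for the day effect without shControl at day 0 (-0.33) or day 7 (-0.33) or without both (-0.33), for shNFIB without shControl at day 7 (1.49), and for shMLL1 without shControl at day 0 (-1.03) or shMLL1 at day 0 (-1.92). They also include Fgf7 for shNFIB without shNFIB at day 7 (-0.14) and Fgf2 for shMLL1 without shControl at day 7 (0.16). When 1 library at a time was left out, the day effect of Spry1 ran from -0.33 to 2.01, its shNFIB effect from -1.36 to 1.49 and its shMLL1 effect from -1.92 to 2.13. That of Fgf7 for shNFIB ran from -0.14 to 0.84 and that of Fgf2 for shMLL1 from -0.59 to 0.16. The cause was not tested. Of the 315 pairwise values under alternatives, 296 stayed within their counting interval, 19 moved and none of the called ones changed sign, while 7 of the 63 differences crossed 2-fold. Of these, 2 crossed only under thinning, Fgf7 from day 0 to day 7 in shControl (just past 2-fold lower) and Spry4 in shNFIB at day 0 (1.30), and which differences crossed under thinning depended on the random draw. Library size alone, without TMM, shifted every gene by 0.21 from day 0 to day 7 in shMLL1 and by at most 0.11 in size in the other comparisons. Depth limits Fgfr4, at 0 to 5 counts a library, and Fgfr2 in the knockdown lines, at 18 to 42 counts apart from shMLL1 at day 7.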
